A study of Mus musculus with 6 samples.

Results

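The kidney sets the acid and salt content of the body through membrane carriers, and 6 solute carrier families hold most of those that move bicarbonate, protons, sodium, chloride and calcium against each other. The genes described here are all rows of the deposited mouse table whose symbol belongs to family Slc4, Slc8, Slc9, Slc12, Slc24 or Slc26 and that carry an expression value. The rule matched 47 of 23669 gene rows, and 44 are described here: 10 of Slc4, 3 of Slc8, 7 of Slc9, 8 of Slc12, 5 of Slc24 and 11 of Slc26. It used names only and no measured level.

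RNA came from whole mouse kidneys taken on postnatal day 3, from 3 wild type samples and 3 samples of genotype R26NICD2/+Kspcre, called NICD2 here. NICD2 mice carry 1 allele at the Rosa26 locus for the intracellular domain of Notch2, the part of the receptor that enters the nucleus after activation. Kspcre expresses Cre recombinase from the promoter of Ksp-cadherin (Cdh16), a cadherin of kidney tubule epithelium. The labels give no further allele for either group, no sex, and do not say whether wild type mice carried Cre. They do not state that replicates are separate animals, so how much of the spread behind the p-values lies between animals is not known. Y-linked and adrenal levels, given below, differ within groups, so the libraries of a group are not all repeats of the same RNA. The series title places the study in cyst growth under active Notch2 signalling.

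Levels are FPKM, fragments of a gene scaled by transcript length and by library size, so they are already per length and can be set side by side between genes. The row for human Notch2 read 0, 0.03 and 0.03 FPKM in wild type libraries and 75.4, 79.6 and 60.2 FPKM in NICD2 libraries, matching their labels. Estimated depth was 16000000 to 17050000 fragments per library. NICD2 replicate 3 read 0 FPKM for the Y-linked genes Ddx3y, Kdm5d, Uty and Eif2s3y, which the other 5 libraries expressed. All 12 markers of the adrenal gland, which lies on the kidney, summed to between 219 and 231 FPKM in 4 libraries but to 6.82 FPKM in wild type replicate 3 and 2.65 FPKM in NICD2 replicate 1. Calls of the named transporters and of the related genes that end in the 4 libraries with adrenal transcripts are given beside them. Because whole kidney was measured, fewer cells of a type and less RNA per cell cannot be told apart anywhere below.

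Each family has its own chemistry. Slc4 carriers move bicarbonate, either in exchange for chloride or together with sodium, and Slc26 carriers exchange chloride for bicarbonate, sulfate, oxalate or iodide. Slc9 carriers swap sodium (or potassium) for protons at the cell surface or in organelles. Slc12 carriers move chloride together with sodium, potassium or both, and the diuretics furosemide and thiazide act on the members of the thick ascending limb and the distal convoluted tubule. Slc8 and Slc24 carriers expel calcium in exchange for sodium. In the collecting duct, intercalated cells secrete acid or base: a proton pump sits on one face and a chloride-bicarbonate exchanger on the other.

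In NICD2 kidneys 6 of the 31 members that could be tested were lower: Slc4a9, Slc26a4, Slc4a11, Slc26a7, Slc4a5 and Slc12a3. Slc4a4 was higher. Slc4a9 and Slc26a4 stood at 10% and 4.03% of their wild type means, whereas every other called member kept at least 41.1%. Levels were compared as log2(FPKM + 1) with limma, moderated with a mean-variance trend, over the 13765 genes that reached 1 FPKM in 3 or more libraries. A gene was called where the Benjamini-Hochberg adjusted p over all those genes was under 0.05, two-sided. All fold changes here are differences on this log2(FPKM + 1) scale, NICD2 less wild type, which understates the change of genes near 1 FPKM.

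The 7 called members made up 22.6% of those tested, against 8.79% of all genes tested. Lower members were 19.4% against a background of 3.86%, and the single higher member was 3.23% against 4.93%. The groups did not overlap for 12 tested members, 38.7%, against 30.5% of all genes. Of these, 10 were lower, where the background for lower was 15.5%, and 2 were higher, where it was 15%. The median fold change was -0.09 over the 31 tested members and -0.01 over all genes. By family, Slc4 had 3 lower and 1 higher of 9 tested, Slc26 had 2 lower of 6 and Slc12 had 1 lower of 6. Slc9, with 6 tested, had none called and 2 with an unadjusted p under 0.05, which 3450 of all 13765 genes tested also had. Slc8 and Slc24, with 2 tested each, had none called and none with an unadjusted p under 0.05. Slc26a4 and Slc4a5 entered the test through their wild type levels only, so a difference was built into their passing. In the 4 libraries with adrenal transcripts alone 1 member was higher and 4 lower. These 4 include Slc4a1, which the fit of all libraries did not call. Slc26a4 and Slc4a5 could not reach 1 FPKM in 3 of these libraries and were not tested there. Leaving out wild type replicate 1, 2 or 3 gave 3, 2 and 3 lower, in part because Slc26a4 and Slc4a5 then could not reach 1 FPKM in 3 libraries, and leaving out NICD2 replicate 3 gave 9.

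**Figure D1:**
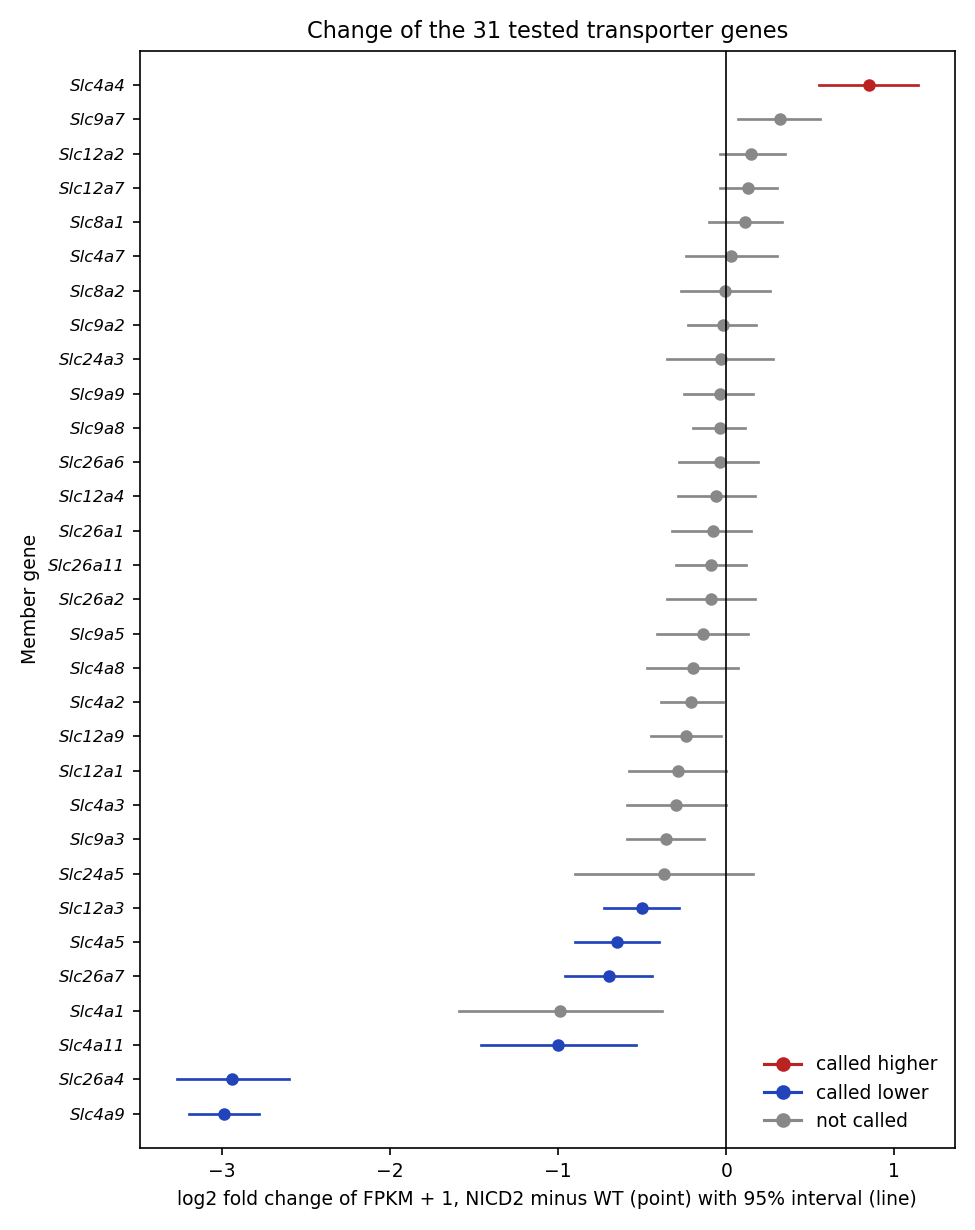
Log2 fold change of the 31 tested members (x axis, NICD2 less wild type on the log2(FPKM + 1) scale) with 95% intervals from limma, 3 libraries per group; red members were called higher, blue members called lower and grey members not called. Slc4a9 and Slc26a4 lie near -3, apart from all other members, and 18 intervals lie wholly within 0.5 of 0.

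Promoter letters are shown for the called members that have an entry in RefSeq's table for GRCm38.p6. Listed starts of genes that fell and of the gene that rose can thus be read side by side. No entry was found for Slc4a9, Slc4a11 and Slc26a7. Each run is the 250 bases before the start, 5′ to 3′ on the gene's strand, with matches to the searched motifs in capitals.
Slc26a4: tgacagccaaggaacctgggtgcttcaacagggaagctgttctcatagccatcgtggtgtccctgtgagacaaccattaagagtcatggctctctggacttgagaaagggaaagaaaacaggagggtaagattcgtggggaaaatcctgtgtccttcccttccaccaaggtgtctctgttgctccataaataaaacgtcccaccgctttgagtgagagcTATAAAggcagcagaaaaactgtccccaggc
Slc4a5: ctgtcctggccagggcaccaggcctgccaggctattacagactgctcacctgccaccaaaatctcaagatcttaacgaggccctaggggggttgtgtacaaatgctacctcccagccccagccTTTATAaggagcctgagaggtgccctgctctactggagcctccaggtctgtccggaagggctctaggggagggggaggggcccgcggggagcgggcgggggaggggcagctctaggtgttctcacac
Slc12a3: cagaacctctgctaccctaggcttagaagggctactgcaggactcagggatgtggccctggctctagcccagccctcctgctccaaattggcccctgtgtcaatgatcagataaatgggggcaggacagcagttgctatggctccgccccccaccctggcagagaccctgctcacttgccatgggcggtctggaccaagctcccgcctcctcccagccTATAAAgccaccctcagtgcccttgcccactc
Slc4a4 first start: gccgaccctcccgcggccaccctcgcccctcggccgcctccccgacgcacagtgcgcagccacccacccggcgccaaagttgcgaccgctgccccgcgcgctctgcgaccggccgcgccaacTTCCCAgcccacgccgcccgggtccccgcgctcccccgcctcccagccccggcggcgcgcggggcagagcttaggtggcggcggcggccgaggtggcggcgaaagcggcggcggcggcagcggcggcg
Slc4a4 second start: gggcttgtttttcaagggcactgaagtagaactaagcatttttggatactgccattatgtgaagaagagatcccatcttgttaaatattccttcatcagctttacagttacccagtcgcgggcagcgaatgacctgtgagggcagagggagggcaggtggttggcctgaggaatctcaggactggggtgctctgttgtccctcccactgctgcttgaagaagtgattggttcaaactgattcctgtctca
These windows lie at chr12:31559985-31560234 on the minus strand, and at chr6:83237125-83237374, chr8:94328958-94329207, chr5:88887010-88887259 and chr5:89027716-89027965 on the plus strand. Those of Slc4a4, Slc4a5 and Slc26a4 lie inside the deposited gene spans, whose upstream ends are chr5:88793897, chr6:83207580 and chr12:31560639. They are therefore not at the upstream ends of these genes. The window of Slc12a3 runs across the upstream end of its deposited span, chr8:94329111, and ends inside it. Capitals in Slc26a4 and Slc12a3 are TATAAA, which begins 31 and 32 bases before the start. In Slc4a5 the same letters lie on the opposite strand, 127 bases before the start. At the first start of Slc4a4 the capitals are TGGGAA on the opposite strand, the core letters of sites for RBPJ, the DNA-binding partner of the Notch intracellular domain, and begin 128 bases before the start.

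Both strands of 45 promoter windows of 35 member genes were searched for 4 motifs, as were 32851 windows of all genes. Any member windows on chromosome 18, which holds Slc4a9, Slc12a2 and Slc26a2, were left out. The search over all genes had no such limit. In these windows of 250 bases before to 50 after the start, TGGGAA was found in 28.9% of member windows and 25.6% of all windows. CACGNG, letters bound by the Hes and Hey repressors that Notch induces, was found in 37.8% and 27.5%. TGTTTAC, the core letters of forkhead factors, was found in 4.44% and 3.65%. TATAAA, added after the sequences had been seen, was found in 22.2% and 13.6%. Of the 4 called members with an entry, Slc4a4 held TGGGAA and Slc12a3 held CACGNG, the latter after its start. These matches describe letters and say nothing of binding in these kidneys.

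The chloride-bicarbonate exchangers of Slc4 were led in wild type kidney by Slc4a9, an exchanger of the basolateral face of base-secreting intercalated cells. Slc4a9 read 32.1, 33.1 and 32.9 FPKM in wild type libraries and 2.78, 3.81 and 3.23 FPKM in NICD2 libraries. Every NICD2 library was far below every wild type library, and the spread within each group was small. The mean fell from 32.7 ± 0.527 to 3.27 ± 0.516 FPKM (SD, n = 3 each), a fold change of -2.99 ± 0.09 (SE; limma adjusted p = 2.24e-06, 95% interval -3.20 to -2.78). Slc4a9 held 30.8 ± 0.524% of all Slc4 FPKM in wild type and 4.45 ± 0.390% in NICD2 kidneys (SD, n = 3). It went from the highest to a minor member of its family.

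Slc4a1, the chloride-bicarbonate exchanger of red blood cells that a shorter form provides to acid-secreting intercalated cells, did not pass the threshold. Its gene lies at chr11:102348820-102365281 on the minus strand (GRCm38). Wild type libraries read 7.02, 6.91 and 5.84 FPKM and NICD2 libraries 1.38, 3.17 and 4.62 FPKM. All NICD2 values were below all wild type values, and NICD2 replicate 1 was the lowest. The fold change was -0.99 ± 0.26 (SE, limma adjusted p = 0.0547, 95% interval -1.59 to -0.38). It passed the threshold in 9 of 23 settings: it was called without NICD2 replicate 1 (-0.65, adjusted p = 0.0383), without NICD2 replicate 3 (-1.26, 0.0129) and in the 4 libraries with adrenal transcripts (-0.72, 0.0439), and not called in the others that leave a library out.

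Since Slc4a1 is made in both cell types, their markers are given beside it. The 13 intercalated cell markers, most of them proton pump subunits and acid-base genes, summed to 233 to 243 FPKM in wild type and 92.3 to 101 FPKM in NICD2 libraries. Of these, 12 were tested and 12 called lower, with a median fold change of -1.89, and none was at 0 in any library. Aqp6 and Hepacam2 entered the test through wild type only, so a difference was built into their passing. Markers of other cell types moved as well: the 10 principal cell markers summed to 404 to 434 FPKM in wild type and 230 to 279 FPKM in NICD2 libraries, with 5 called lower and 2 higher. The 8 urothelium markers summed to 48.9 to 102 and 39.2 to 68.7 FPKM, with 3 called lower and 1 higher, and the 6 smooth muscle markers to 346 to 459 and 473 to 741 FPKM, with 2 called higher. The 17 erythroid markers summed to 4490, 2350 and 1930 FPKM in wild type and 1750, 2660 and 2840 FPKM in NICD2 libraries, so these groups overlapped. None of the 8 tested was called by limma, 1 had an unadjusted p under 0.05, and Rhag was at 0 in wild type replicate 2 and Hemgn in wild type replicate 3. NICD2 replicate 1 had the lowest Slc4a1 and the lowest erythroid sum. Wild type replicate 3 had a lower erythroid sum and a higher Slc4a1 than NICD2 replicates 2 and 3. The part of any of these cell types in the levels of Slc4a1, Slc4a9 or the Slc26 exchangers was not tested.

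**Figure D2:**
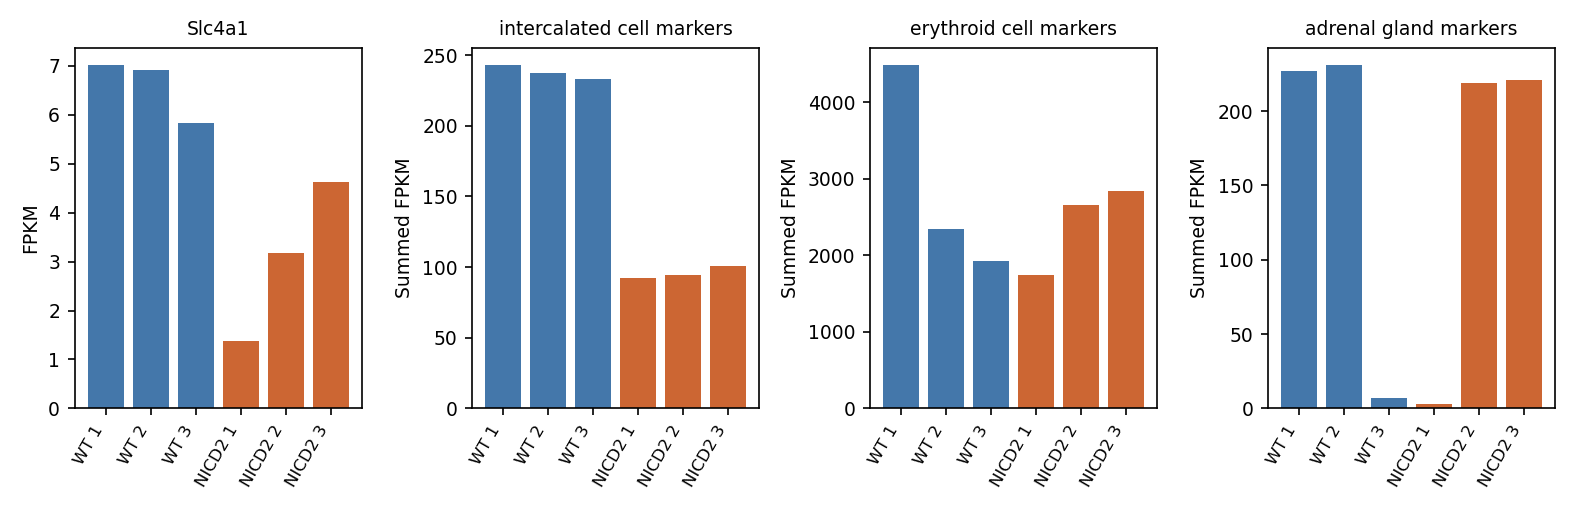
FPKM of Slc4a1 and summed FPKM of the intercalated cell, erythroid and adrenal gland markers (y axes) in each of the 6 libraries (x axis), with 1 bar per library. Intercalated markers stand at 233 to 243 FPKM in wild type and 92.3 to 101 FPKM in NICD2 libraries, erythroid markers overlap between groups, and adrenal markers are near 0 in wild type replicate 3 and NICD2 replicate 1.

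Slc4a2 and Slc4a3, chloride-bicarbonate exchangers found in many tissues, differed less. Slc4a2 read 20.4, 20.5 and 20.4 FPKM in wild type and 15.9, 19.7 and 17.3 FPKM in NICD2 libraries. The groups did not overlap, but the fold change of -0.21 ± 0.08 was not called (SE, limma adjusted p = 0.151). Slc4a3 read 13.1, 11.3 and 10 FPKM in wild type and 7.78, 10.9 and 8.85 FPKM in NICD2 libraries. NICD2 replicate 2 lay inside the wild type range, and the fold change was -0.30 ± 0.13 (SE, limma adjusted p = 0.195).

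Among the sodium-coupled bicarbonate carriers, Slc4a4 and Slc4a5 were called in opposite directions. Slc4a4 is the electrogenic sodium bicarbonate cotransporter that returns bicarbonate from proximal tubule cells to the blood, at chr5:88793897-89239656 on the plus strand (GRCm38). It read 11.5, 16.7 and 15.8 FPKM in wild type and 24.9, 26.6 and 29.4 FPKM in NICD2 libraries. Each NICD2 library lay above each wild type library. The mean rose from 14.7 ± 2.77 to 27.0 ± 2.27 FPKM (SD, n = 3 each), 183% of wild type, with a fold change of 0.85 ± 0.13 (SE, limma adjusted p = 0.00528). Its share of Slc4 FPKM went from 13.8 ± 2.31% to 36.8 ± 2.63% (SD, n = 3), the highest of the family in every NICD2 library. The 11 proximal tubule markers summed to 1770 to 1950 FPKM in wild type and 1170 to 1350 FPKM in NICD2 libraries, with 5 called lower, none called higher and none at 0. Most of that sum was Kap, with means of 1090 and 709 FPKM, and Slc34a1, with 378 and 245 FPKM, both called lower. The other 6 markers were not called, among them Lrp2 and Hnf4a at 91.9% and Slc22a6 at 112% of wild type.

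Slc4a5, a second electrogenic sodium bicarbonate cotransporter, was much rarer. The gene spans chr6:83207580-83304945 on the plus strand (GRCm38). It read 1.66, 1.40 and 1.76 FPKM in wild type and 0.69, 0.64 and 0.65 FPKM in NICD2 libraries, with a wide gap between the groups. The fold change was -0.65 ± 0.11 (SE, limma adjusted p = 0.00871). It was not called in the 4 libraries with adrenal transcripts (adjusted p = 0.0809, with 1 FPKM required in 2 libraries). The electroneutral carriers Slc4a7 and Slc4a8 were not called, with mean levels of 5.86 and 5.95 FPKM for Slc4a7 and 1.57 and 1.25 FPKM for Slc4a8 in wild type and NICD2.

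Slc4a11, a family member known in corneal endothelium that carries protons or hydroxide rather than bicarbonate, fell. It lies at chr2:130684107-130697519 on the minus strand (GRCm38). Wild type libraries read 10.7, 12.2 and 9.18 FPKM and NICD2 libraries 3.13, 5.34 and 6.47 FPKM. The groups were apart, with NICD2 replicate 1 the lowest. The mean went from 10.7 ± 1.51 to 4.98 ± 1.70 FPKM (SD, n = 3 each), and the fold change was -1.0 ± 0.20 (SE, limma adjusted p = 0.0183). The call was lost without wild type replicate 1 (adjusted p = 0.0518), without wild type replicate 2 (0.0791) and with no filter on low values (0.0576).

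Of the Slc26 anion exchangers, Slc26a4 changed by far the most. Slc26a4 encodes pendrin, which secretes bicarbonate and takes up chloride at the apical face of base-secreting intercalated cells, at chr12:31519814-31560639 on the minus strand (GRCm38). It read 8.70, 9.12 and 10.7 FPKM in wild type and 0.14, 0.35 and 0.66 FPKM in NICD2 libraries. Every NICD2 library was below 1 FPKM and every wild type library near 10 FPKM. The mean fell from 9.52 ± 1.07 to 0.383 ± 0.262 FPKM (SD, n = 3 each), with a fold change of -2.94 ± 0.15 (SE, limma adjusted p = 1.50e-05). The NICD2 values correspond to an estimated 9.4, 23 and 44 fragments, against 550, 600 and 720 in wild type, so each is less precisely determined. Its share of Slc26 FPKM was 32.0 ± 1.79% in wild type and 2.11 ± 1.3% in NICD2 kidneys (SD, n = 3).

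Slc26a7, a chloride-bicarbonate exchanger of the basolateral face of acid-secreting intercalated cells, fell as well. The gene is at chr4:14502430-14621973 on the minus strand (GRCm38). It read 2.94, 3.76 and 3.97 FPKM in wild type and 1.92, 1.62 and 1.86 FPKM in NICD2 libraries, without overlap. The fold change was -0.70 ± 0.11 (SE, limma adjusted p = 0.00739). In the 4 libraries with adrenal transcripts it was -0.66 (adjusted p = 0.0478, or 0.0519 with 1 FPKM required in 2 libraries). The remaining tested members were not called, and their groups overlapped. Slc26a1, a sulfate and oxalate exchanger, had means of 5.66 and 5.31 FPKM in wild type and NICD2. Slc26a11, a chloride and sulfate carrier, had 4.31 and 3.99 FPKM, Slc26a6, an oxalate exchanger, 2.67 and 2.57 FPKM, and Slc26a2, the sulfate carrier of cartilage, 2.44 and 2.24 FPKM. Slc26a1 overlaps Idua on the opposite strand, and reads of overlapping genes cannot be told apart without strand.

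Summed over members, Slc4 stood at 104, 110 and 105 FPKM in wild type and 63.6, 78.2 and 78.7 FPKM in NICD2 libraries. Slc26 stood at 27.7, 29.9 and 31.6 FPKM in wild type and 15.9, 17.8 and 19.0 FPKM in NICD2 libraries. Neither pair of groups overlapped. Within Slc4 the highest member was Slc4a9 in every wild type library and Slc4a4 in every NICD2 library. Within Slc26 it was Slc26a4 in every wild type library and Slc26a1 in every NICD2 library. Slc26a1 went from 19.1% to 30.3% of the Slc26 sum while its own level was not called as changed.

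**Figure D3:**
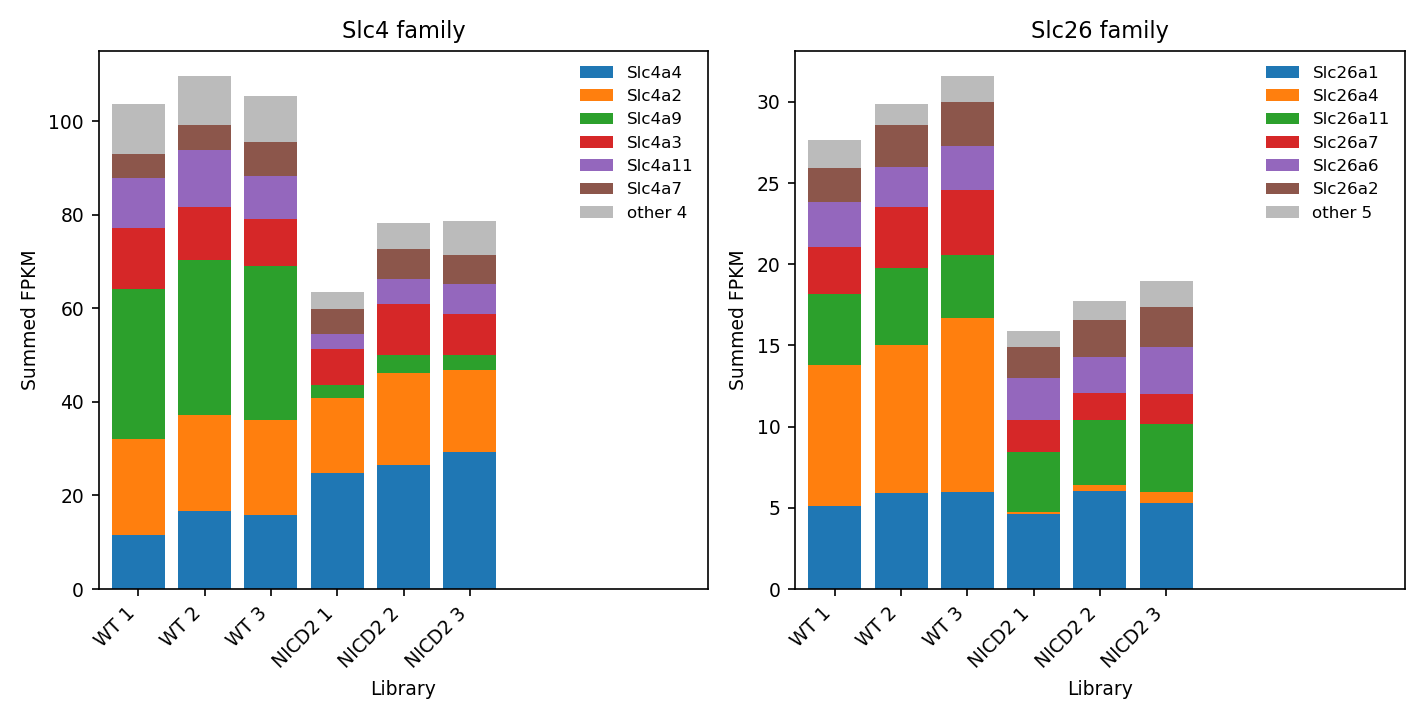
Summed FPKM of Slc4 and of Slc26 in each library (stacked bars from 0, y axis in FPKM, x axis the 6 libraries), divided into the 6 members with the highest levels and all others. The Slc4a9 and Slc26a4 segments shrink to 4.45% and 2.11% of their family sum in NICD2 libraries, and the Slc4a4 segment grows to 36.8%.

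The 7 sodium-proton exchangers described here summed to 31.7 ± 0.926 FPKM in wild type and 28.9 ± 1.14 FPKM in NICD2 kidneys (SD, n = 3), without overlap, and no single member was called. Slc9a7, a trans-Golgi exchanger on the X chromosome, read 1.25, 1.57 and 1.74 FPKM in wild type and 2.14, 2.11 and 2.15 FPKM in NICD2 libraries, and its fold change of 0.32 ± 0.11 was not called (SE, limma adjusted p = 0.107). NICD2 replicate 3, the library without Y-linked transcripts, was level with the rest of its group.

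Slc9a3, the apical exchanger through which the proximal tubule takes up sodium and secretes acid, read 6.44, 7.37 and 7.36 FPKM in wild type and 4.61, 5.25 and 6.01 FPKM in NICD2 libraries. The groups did not overlap, and the fold change was -0.36 ± 0.10 (SE, limma adjusted p = 0.0615). It passed the threshold without NICD2 replicate 3 (adjusted p = 0.0412). Slc9a8, a Golgi exchanger, read 10.3, 9.89 and 10.3 FPKM in wild type and 9.39, 10.3 and 9.84 FPKM in NICD2 libraries, with a 95% interval of -0.20 to 0.11, so larger changes in either direction lie outside it. Slc9a2, Slc9a5 and Slc9a9 had means between 2.94 and 5.17 FPKM in either group and were not called.

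The cation-chloride cotransporters were the most abundant of the 6 families. The 8 described here summed to 243 ± 18.8 FPKM in wild type and 203 ± 26.6 FPKM in NICD2 kidneys (SD, n = 3), with overlapping groups. Slc12a1, the furosemide-sensitive sodium-potassium-chloride cotransporter of the thick ascending limb, lies at chr2:125152259-125230002 on the plus strand (GRCm38). It was the highest of all members, with 118, 143 and 137 FPKM in wild type and 93.0, 103 and 131 FPKM in NICD2 libraries. NICD2 replicate 3 lay among the wild type libraries while the other NICD2 libraries lay below them. The fold change was -0.29 ± 0.13 (SE, limma adjusted p = 0.196), and it was called without NICD2 replicate 3 (-0.43, adjusted p = 0.0406). In the 4 libraries with adrenal transcripts it was -0.16 (adjusted p = 0.626). Slc12a1 held 54.6 ± 1.27% of the FPKM of these Slc12 members in wild type and 53.6 ± 2.91% in NICD2 kidneys (SD, n = 3). The 9 thick ascending limb markers summed to 282 to 299 FPKM in wild type and 447 to 542 FPKM in NICD2 libraries, with 2 called higher and 4 called lower and a median fold change of -0.27. The higher sum was that of Umod, which went from 114 to 337 FPKM in the means, and without it, a choice made after its values were seen, the other 8 summed to 171 to 181 FPKM in wild type and 147 to 175 FPKM in NICD2 libraries. Tmem207, 1 of the 4 lower markers, was at 0 in some libraries and entered the test through wild type only.

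Slc12a3, the thiazide-sensitive sodium-chloride cotransporter that defines the distal convoluted tubule, fell. It lies at chr8:94329111-94367545 on the plus strand (GRCm38). It read 54.2, 64.3 and 58.9 FPKM in wild type and 36.1, 42.6 and 45.9 FPKM in NICD2 libraries. The groups did not overlap. The mean went from 59.1 ± 5.04 to 41.5 ± 4.97 FPKM (SD, n = 3 each), a fold change of -0.50 ± 0.10 (SE, limma adjusted p = 0.0166). The call was lost without wild type replicate 2 (adjusted p = 0.0710), without wild type replicate 3 (0.0576) and in the 4 libraries with adrenal transcripts (0.102). The 8 distal convoluted tubule markers summed to 148 to 158 FPKM in wild type and 143 to 146 FPKM in NICD2 libraries, with 1 called higher, 3 called lower and none at 0. Of the lower markers, Pvalb entered the test through wild type only. What part the number of cells of these segments had in Slc12a1 and Slc12a3 was not tested.

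Slc12a2, the widely expressed sodium-potassium-chloride cotransporter that loads secretory epithelia with chloride, read 15.0, 17.5 and 17.7 FPKM in wild type and 17.2, 18.8 and 20.2 FPKM in NICD2 libraries. The groups overlapped and the fold change was 0.15 ± 0.09 (SE, limma adjusted p = 0.316, 95% interval -0.04 to 0.35). 

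Potassium-chloride cotransporters let chloride leave the cell and take part in volume control. Slc12a4 read 14.4, 14.4 and 12 FPKM in wild type and 11.5, 14.3 and 13.3 FPKM in NICD2 libraries. Slc12a7 read 11.3, 13.2 and 12.5 FPKM in wild type and 13.4, 14.2 and 13.1 FPKM in NICD2 libraries. Both overlapped between groups and were not called (limma adjusted p = 0.758 and 0.329). Slc12a9, a member whose cargo is less well defined, had a fold change of -0.24 with groups that did not overlap and was not called (limma adjusted p = 0.148).

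**Figure D4:**
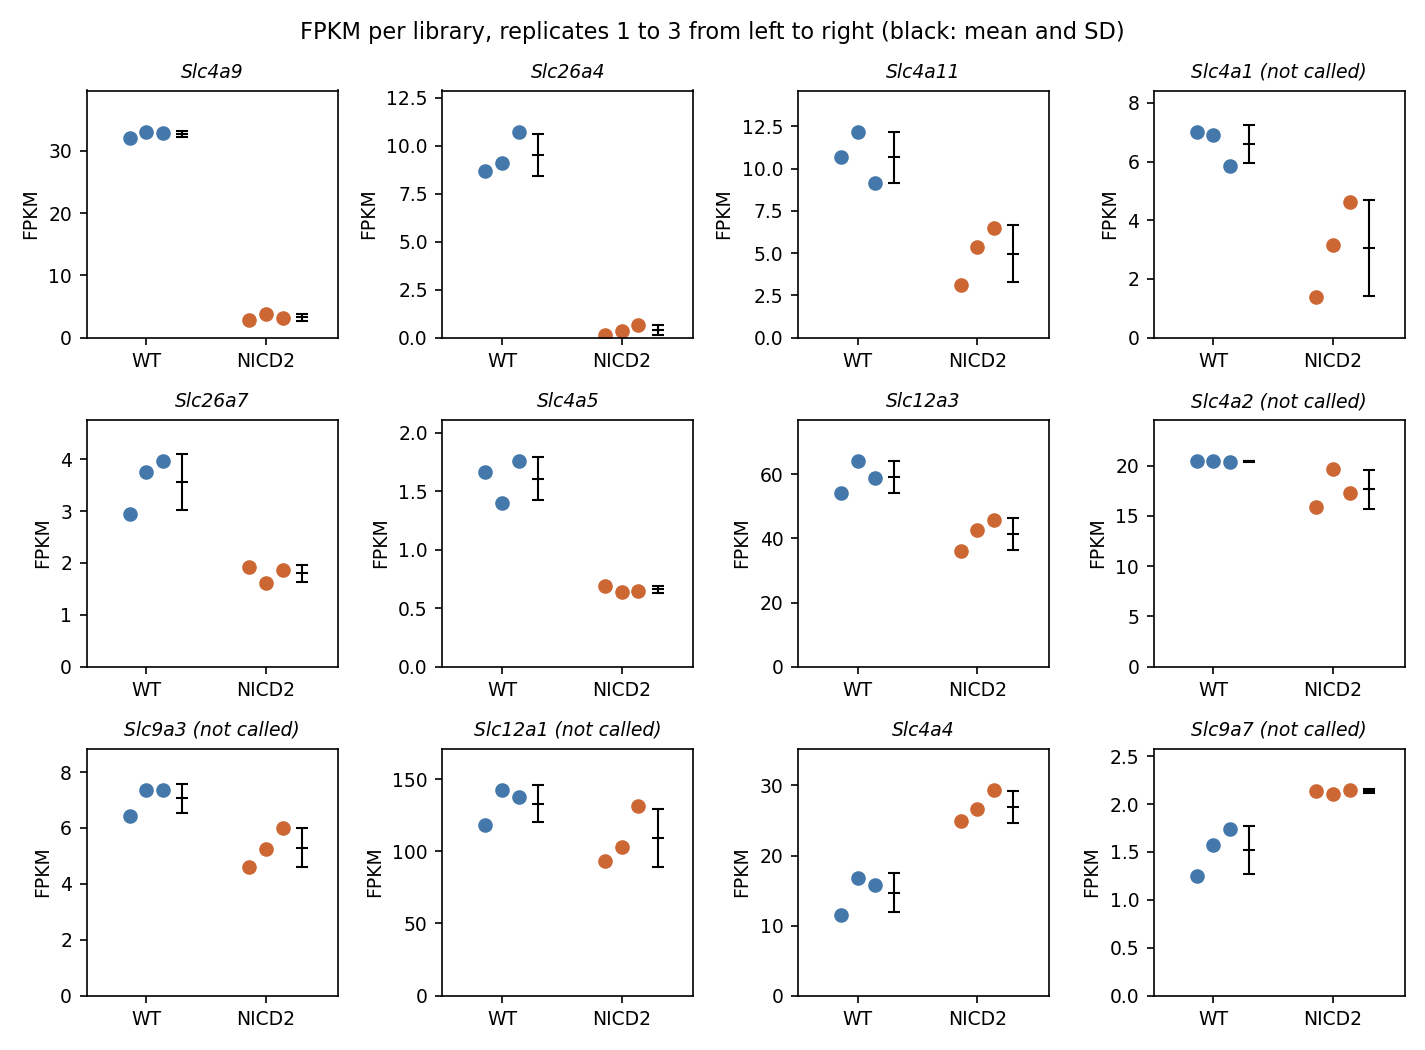
FPKM of 12 members in each library (points, replicates 1 to 3 from left to right), with the group mean and SD (black line and error bar, n = 3 per group) and a separate y axis from 0 for each gene. Wild type and NICD2 points are apart for all panels but Slc12a1, with the widest gaps for Slc4a9 and Slc26a4 and higher NICD2 points for Slc4a4 and for Slc9a7, which was not called.

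The calcium exchangers showed no called member. Slc8a1, the sodium-calcium exchanger through which the distal nephron returns calcium to the blood, read 7.30, 8.97 and 8.93 FPKM in wild type and 9.91, 8.81 and 8.72 FPKM in NICD2 libraries. The groups overlapped, and the 95% interval of the fold change was -0.10 to 0.33. Slc8a2, better known in neurons, had means of 1.25 and 1.24 FPKM. Slc24a3 had 3.05 and 2.99 FPKM. Slc24a5, a carrier of pigment cell organelles, read 5.08, 2.24 and 4.68 FPKM in wild type and 2.51, 2.30 and 3.46 FPKM in NICD2 libraries. Wild type replicate 2 was the lowest of all 6 libraries, well apart from the rest of its group. The fold change was -0.37 ± 0.23 (SE, limma adjusted p = 0.362). With that library removed it was -0.66 (adjusted p = 0.0528), and with wild type replicate 1 removed -0.20. Slc24a5 overlaps Myef2 on the opposite strand.

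Of the 13 members not tested, 11 were below 1 FPKM in every library, namely Slc4a10, Slc8a3, Slc12a8, Slc24a1, Slc24a2, Slc24a4, Slc26a3, Slc26a5, Slc26a8, Slc26a9 and Slc26a10. The other two, Slc12a5 and Slc9a4, passed 1 FPKM in too few libraries. The clearest difference below the filter was in Slc9a4, a sodium-proton exchanger known from stomach and kidney tubule. It read 0.94, 1.10 and 1.09 FPKM in wild type and 0.46, 0.36 and 0.38 FPKM in NICD2 libraries, 38.3% of the wild type mean. With no filter its fold change was -0.55 ± 0.06 (SE, limma adjusted p = 0.00619). That fit tested all 44 members and called 7 of them, 6 lower and 1 higher, against a background of 4.55% of genes. Slc26a10 read 0.93, 0.80 and 0.91 FPKM in wild type and 0.61, 0.71 and 0.77 FPKM in NICD2 libraries, without overlap, and shares its locus with B4galnt1 on the opposite strand.

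Genes that switch, anchor or supply these carriers were taken from a list of 41, of which 35 were tested. Of these, 6 were higher and 8 lower, 40.0% of those tested against 8.79% of all genes, and the median fold change was -0.11. The list was chosen with earlier results of these data known, so setting this share against that of all genes is not a test. In the kinase switch that phosphorylates the Slc12 carriers, 2 of 11 tested were higher and 1 lower. Stk39, the kinase that phosphorylates Slc12a1 and Slc12a3, rose from 17.3 ± 0.465 to 28.2 ± 1.83 FPKM (SD, n = 3; limma adjusted p = 5.72e-04). Cab39l, a scaffold that activates it, rose from 19.0 ± 1.05 to 32.6 ± 3.83 FPKM (SD, n = 3; limma adjusted p = 0.00172). Klhl3, the ubiquitin ligase adaptor that removes the upstream WNK kinases, fell from 7.94 ± 0.577 to 5.42 ± 0.303 FPKM (SD, n = 3; limma adjusted p = 0.00847). Sgk1 and Wnk1, the most abundant genes of this list in wild type, were not called (limma adjusted p = 0.323 and 0.102). Nor was Wnk4, the most abundant in NICD2 kidneys (0.0867).

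Among 9 tested scaffolds and cofactors of exchangers, Slc9a3r1, the scaffold that anchors Slc9a3, rose from 61.6 ± 3.28 to 85.0 ± 9.04 FPKM (SD, n = 3; limma adjusted p = 0.0129). Ezr, the linker that ties it to actin, rose from 159 ± 6.89 to 210 ± 20.6 FPKM (SD, n = 3; limma adjusted p = 0.0207). Tesc, a cofactor of sodium-proton exchangers, fell from 13.4 ± 1.43 to 8.14 ± 1.2 FPKM (SD, n = 3; limma adjusted p = 0.00869). Pdzk1, the most abundant of this list after Ezr, was lower without overlap, at 108 ± 6.43 and 92.2 ± 3.35 FPKM. It was not called (limma adjusted p = 0.0757). Of the 9, 6 had a fold change below 0, and the median was -0.11. Carbonic anhydrases supply the bicarbonate and protons, and 3 of 6 fell and 1 rose. Car12 fell from 47.8 ± 3.88 to 17.1 ± 0.729 FPKM (SD, n = 3), and Car15 from 27.0 ± 0.633 to 11.2 ± 1.55 FPKM. Car14 fell from 7.94 ± 0.387 to 5.46 ± 0.114 FPKM, and Car4, the membrane-anchored enzyme of the proximal tubule, rose from 57.4 ± 1.56 to 89.9 ± 17.1 FPKM (limma adjusted p at most 0.0136 for all of these). Car2, the main cytosolic enzyme, was not called at 88.9 ± 4.11 and 85.8 ± 11.0 FPKM.

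Of 8 channels, receptors and pump subunits that work with the Slc12 carriers, 3 fell and 1 rose. Bsnd, which encodes barttin, fell from 23.9 ± 0.806 to 16.0 ± 1.25 FPKM (SD, n = 3; limma adjusted p = 0.00244). The calcium-sensing receptor Casr fell from 7.82 ± 0.782 to 4.10 ± 0.593 FPKM (SD, n = 3; limma adjusted p = 0.00277). Fxyd2, the gamma subunit of the sodium pump, fell from 1090 ± 110 to 812 ± 49.5 FPKM (SD, n = 3; limma adjusted p = 0.0275). Kcnj1, the apical potassium channel that recycles potassium for Slc12a1, rose from 21.9 ± 2.36 to 31.6 ± 2.98 FPKM (SD, n = 3; limma adjusted p = 0.0144). The pump subunit Atp1b1 was not called, at 475 ± 32.9 and 527 ± 9.7 FPKM. Bsnd, Kcnj1, Klhl3 and Wnk4 are also in the segment marker lists above, so those counts are not independent of these.

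Of the 14 related genes called, 8 stayed called in the 4 libraries with adrenal transcripts: Stk39, Cab39l, Tesc, Car4, Car12, Car15, Bsnd and Casr. The other calls ended there. Limma fold changes and adjusted p in those libraries were -0.42 and 0.0871 for Klhl3, 0.44 and 0.105 for Slc9a3r1, and 0.33 and 0.144 for Ezr. They were -0.44 and 0.0541 for Car14, 0.57 and 0.0523 for Kcnj1, and -0.42 and 0.202 for Fxyd2. Calls over all genes also fell in those 4 libraries, from 1210 to 469. With an adrenal term in the fit of all 6 libraries, all 14 related genes stayed called (limma adjusted p at most 0.0449). Single libraries also ended calls when left out. Ezr was not called when any 1 wild type library, or the first NICD2 library, was removed (limma adjusted p from 0.0527 to 0.0627). Fxyd2 was not called when replicate 1 or 3 of wild type, or 1 or 3 of NICD2, was removed (adjusted p up to 0.0929), nor with no filter (0.0912). The call of Slc9a3r1 ended with wild type replicate 2 or 3 removed (0.0539 and 0.0561), and that of Car4 with wild type replicate 2 removed (0.0569).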

How the data were processed

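The authors deposited 1 table of FPKM per gene and library for 3 wild type and 3 NICD2 kidneys, built from TruSeq libraries of 1 µg total RNA per the labels' protocols. Bowtie 0.12.2 and the build mm8 are named in the submitters' processing notes, while the coordinates in the deposited table match GRCm38 for 43 of 44 members. Slc26a6 sits on a scaffold. The sources used here do not name the program behind the FPKM, and no counts were used. Gene length is another column that the authors deposited. 27 columns that compare pairs of samples were not used, and 4010 rows without FPKM were left out. Depth was read from the spacing of low FPKM values: with 75.44 to 77.8% of these values within 0.15 of a whole fragment (30.0% by chance), it is approximate, and count models were not fitted.

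log2(FPKM + 1) was fitted in R 4.3.3 with limma 3.58.1, using its variance trend, over genes that reached 1 FPKM in 3 or more libraries. Exact permutation of 3 against 3 cannot go below p = 0.1, so single-gene permutation tests were not used. On simulated data of 13593 genes for this comparison, 68.7%, 94% and 97% of genes changed by 0.5, 1 and 2 (log2) were recovered. Of the calls made there, 6.49% were false. The lowest genes were never among those changed, so recovery of members near 1 FPKM was not measured. Fewer genes were changed than were called in the data, so these shares need not hold there. Members, gene lists, markers and alternatives were chosen with earlier results of these data known. Some genes that the rule or the lists matched are not reported here and enter no count of members or related genes, but stay in the fit over all genes. Every other member may be named, with values per library for those called or at 10 FPKM or more in a group mean. Of the related genes, those called and the most abundant of each list may be named. Slc4a1, Slc9a3, Slc9a4, Slc9a7 and others below that level were given such values after they were seen. Other settings comprised no filter, a filter at 5 FPKM, a pseudocount of 0.1, median-ratio and upper-quartile scaling, a replicate block, no variance trend, and each library left out in turn. An adrenal term, the 4 libraries with adrenal transcripts alone, and a filter that asks for 2 libraries were added after seeing the data. Promoter letters and starts come from RefSeq, GRCm38.p6. Python 3.11.15 with pandas 2.3.3 was used for tables, and matplotlib 3.10.9 for figures.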

Additional observations from a re-analysis of the deposited data

How the results depend on the processing

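Slc4a9 and Slc4a4 were called in the same direction in all 23 settings, and Slc26a4 in all 19 in which it passed the filter. Slc26a7 was called in 21 of 22. The count of members higher was 1 in every setting, and that of members lower was 6, with 5 to 7 under the pseudocount, filter, scaling, variance, block and adrenal term settings. Leaving out 1 library gave 2 to 9 members lower, with 3, 2 and 3 when wild type replicate 1, 2 or 3 was the one removed. Without a wild type library Slc26a4 and Slc4a5 cannot reach 3 libraries at 1 FPKM, and with 2 libraries required the count was 4 to 9, both of them called in all 6 cases. The 4 libraries with adrenal transcripts gave 4 members lower, among them Slc4a1, which the main fit did not call. They gave 469 genes called in all (554 with 2 libraries required) and 8 related genes, against 1210 and 14. Leaving out 1 library gave 603 to 955 genes (607 to 975 with 2 libraries required, 717 and 779 among them), lowest without wild type replicate 2, and 11 to 14 related genes.

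Libraries of equal replicate number showed little correlation of their deviations from group means (r = -0.033, 0.059 and -0.045). For unequal numbers r ran from -0.253 to 0.246. This check does not show whether the numbers mark a shared litter or batch. With the replicate block 1055 genes were called, and Slc9a3 was gained (adjusted p = 0.0457), so members lower came to 7.

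Fold changes near 0 that were never called changed sign when 1 library was left out: Slc4a7 (-0.04 to 0.16, -0.03 and -0.02 among them), Slc8a2 (-0.08 to 0.04), Slc9a2 (-0.08 to 0.03), Slc12a4 (-0.14 to 0.02), Slc24a3 (-0.15 to 0.11) and Slc26a6 (-0.11 to 0.03). In the 4 libraries with adrenal transcripts Slc9a2 was 0.01, Slc24a3 0.05, Slc26a1 0.03 and Slc26a2 0.03. The cause was not tested. Upstream windows of 250 bases alone held TGTTTAC in 4.44%, TGGGAA in 26.7% and CACGNG in 31.1% of member windows. Depth limits the rarest members: Slc24a1, Slc24a4, Slc26a3, Slc26a5 and Slc26a9 rest on an estimated 8.8 fragments or fewer in any library. Others under 1 FPKM rest on more, such as Slc4a10 with 54 to 95.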
